A study of Mus musculus with 40 samples.

Results

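The mRNAs of the interleukin-6 (IL-6) family were followed through an endotoxin response in macrophages with and without the RNA-binding protein CPEB4. The family was taken as 3 ligand genes (Il6, Lif and Osm) and 4 receptor genes (Il6ra, Il6st, Lifr and Osmr), chosen by gene symbol, and all 7 were found among the 27179 genes of the deposited expression table. Bone marrow-derived macrophages (BMDMs) came from adult male mice on a mixed C57BL/6J and 129 background, 4 wild type (WT) and 4 Cpeb4-/- (KO, a knockout carried by all cells of the animal). Macrophages were grown out of the marrow over 7 days, with M-CSF supplied by medium that L cells had conditioned. They were then left untreated or given 10 ng/ml of lipopolysaccharide (LPS, E. coli 0111:B4) for 1, 3, 6 or 9 hr. Each mouse gave the cells of all 5 times, so that the 40 poly(A) RNA-seq libraries form 10 groups of 4. Each of 2 batches held 2 WT and 2 KO mice, but no cage housed both genotypes, so cage and genotype cannot be told apart.

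IL-6 family cytokines signal through a shared receptor chain, gp130, the product of Il6st. IL-6 first binds the IL-6 receptor alpha chain (Il6ra), leukemia inhibitory factor (Lif) joins gp130 to the LIF receptor (Lifr), and oncostatin M (Osm) acts in the mouse mainly through its own receptor (Osmr) paired with gp130. The chains activate JAK kinases and the transcription factor STAT3, which induces its own inhibitor, SOCS3. Macrophages are a major source of IL-6 and oncostatin M after LPS, and the ligand mRNAs are short-lived because proteins such as tristetraprolin bind AU-rich elements in their 3′ ends. CPEB proteins bind U-rich cytoplasmic polyadenylation elements (CPEs) in 3′ ends.

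The values are regularized log (rlog) values on a log2 scale, corrected for library size and drawn toward a gene's own mean where counts are low. They are not scaled for gene length, so the level of a member is compared between libraries and not with that of another gene. The table holds no counts and the depth of a library cannot be read from it. The 60 pairs of libraries of the same group correlated with r from 0.992 to 0.998, and no libraries held identical values. All 8 macrophage markers were above the low-value limit (an rlog of log2 of 5), and the B cell, T cell, NK cell and mast cell lists had no gene whose mean over the 40 libraries was above it. Other lists did hold such genes, 4 of 7 for neutrophils, 3 of 4 for dendritic cells, 2 of 7 for fibroblasts and 2 of 4 for endothelium. Among these genes were Kdr (mean 9.37) and Pdgfrb (mean 7.37). In single libraries the NK cell gene Klrb1c reached 3.58. Cpeb4, summed over the whole gene, was lower in KO at 6 hr (8.74 to 9.66, against 10.09 to 10.67 in WT, a difference of −1.27, limma adjusted p = 0.0011). Its ranges overlapped between genotypes at the other 4 times, so this sum checks the labels at 6 hr only and the genotypes are those of the labels. In bulk RNA, fewer cells of a type and less RNA per cell cannot be told apart.

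Members were first located in the mouse genome (GRCm38.p6, RefSeq). Il6 lies at chr5:30013114-30019975. Osm (chr11:4236785-4241026) ends 16541 bases before Lif (chr11:4257568-4272514). Cpeb4, the gene knocked out, lies on the same chromosome (chr11:31870104-31935635), and the mice are on a mixed background. The part of this shared chromosome in the Osm and Lif differences between genotypes was not tested. Osmr (chr15:6813568-6874968) ends 215641 bases before Lifr (chr15:7090610-7197489), while Il6ra lies at chr3:89869324-89913196 and Il6st at chr13:112464070-112506860. The gene pairs that neighbour each other did not share a time course. Osm and Lif both rose by 1 hr but only Osm rose again by 6 hr, and Lifr fell at every step while the low Osmr values were higher at 3 and 6 hr.

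RefSeq promoters were available for 6 of the 7 members. The 250 bases before the annotated start are shown for Il6 (chr5:30012864-30013113, plus strand) and Lif (chr11:4257318-4257567, plus strand), the members with the largest rises in LPS. Capitals mark matches on either strand to motifs of factors that LPS activates, namely GGGNNNTTCC (NF-κB), TTNNGNAA (C/EBP), TGANTCA (AP-1) and TGACG (core of the cAMP response element), and no matches overlapped.
Il6 promoter: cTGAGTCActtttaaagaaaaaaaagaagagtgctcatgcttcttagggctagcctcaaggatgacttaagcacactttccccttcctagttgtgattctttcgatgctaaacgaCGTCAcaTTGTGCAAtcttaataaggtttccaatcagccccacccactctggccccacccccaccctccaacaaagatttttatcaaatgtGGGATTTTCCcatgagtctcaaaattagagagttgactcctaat
Lif promoter: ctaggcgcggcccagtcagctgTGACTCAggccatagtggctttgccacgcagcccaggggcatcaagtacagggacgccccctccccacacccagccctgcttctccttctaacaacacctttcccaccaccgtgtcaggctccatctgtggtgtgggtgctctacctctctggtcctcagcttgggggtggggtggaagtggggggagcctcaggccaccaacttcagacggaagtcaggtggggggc
The Il6 promoter held 1 match to each of the 4 motifs, the NF-κB match beginning 44 bases, the C/EBP match 128 bases, the cAMP response element core 135 bases and the AP-1 match 249 bases before the start. The Lif promoter held an AP-1 match 228 bases before the start and none of the other 3. Among all 32851 promoters of the same length, 4.65% held the NF-κB motif, 36.8% the C/EBP motif, 6.75% the AP-1 motif and 17.8% the cAMP response element core. Il6ra held 2 C/EBP matches and 1 cAMP response element core, and Il6st, Lifr (2 promoters) and Osmr held none of the 4 motifs. A STAT motif (TTCNNNGAA, in 7.02% of promoters) and TATAAA (in 12.4%) were found in none of these windows. A match is a string of letters, not evidence of binding.

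The 3′ ends of the members were searched for ATTTA pentamers, a motif of AU-rich elements, and mRNA decay was not measured. The window of 30 bases with the most ATTTA pentamers is shown for each ligand, with the pentamers in capitals (GENCODE M21 principal transcripts, GRCm38, plus strand), at chr5:30019684-30019713 for Il6, chr11:4272414-4272443 for Lif and chr11:4240945-4240974 for Osm.
Il6 3′ end: atttttaATTTAttgataATTTAaataagt
Lif 3′ end: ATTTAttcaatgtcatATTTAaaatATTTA
Osm 3′ end: ttttatATTTAtaaggcctATTTAtaatgt
The Il6 3′ end is 427 bases long and held 6 pentamers, a number that 0.418% of the genes with 3′ ends of like length (within 20%) reach. The Osm 3′ end (1017 bases) also held 6, which 5.22% reach. The Lif 3′ end (3180 bases) held 7 pentamers, which 38.9% reach, and 2 copies of the longer element TTATTTATT, which 3.85% reach. No other member held TTATTTATT. The receptors held pentamers too, 1 in Il6ra (89.9% of genes of like length reach this), 9 in Il6st (60.2%), 11 in Lifr (54.3%) and 4 in Osmr (40.3%). The CPE TTTTAT was present 2 times in Il6 (8.78% of genes of like length hold as many), 10 times in Lif (1.66%) and 3 times in Osm (12.2%). Among the receptors it was present 4 times in Il6ra (16.3%), 3 in Il6st (81.6%) and 11 in Lifr (13.2%), and was not found in Osmr. The CPE variant TTTTAAT was present 2 times in Il6 (1.25% of genes of like length hold as many), 2 times in Il6st (48.6%) and 1 time in Lifr (80.5%), and was not found in the other 4 members. Over 20730 genes, 62.8% held a pentamer, 7.13% the longer element, 49.4% a TTTTAT and 26.8% a TTTTAAT.

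LPS induced all 3 ligands, each on its own schedule. Of the members, 6 were testable over time, since Osmr was under the low-value limit over the libraries of either genotype. In WT cells, 3 members were higher and 1 lower at 1 hr than in untreated cells, against 17.3% of all genes higher and 16.6% lower (limma adjusted p under 0.05). At 3 hr 2 were higher and 3 lower (32.5% and 35.3% of all genes), at 6 hr 3 and 3 (38.7% and 39.2%) and at 9 hr 2 and 2 (35.9% and 35.6%). In KO cells, 3 were higher and 1 lower at 1 hr (23.8% and 20% of all genes), 3 and 3 at 3 hr (34.4% and 36.9%), 3 and 3 at 6 hr (39% and 40.1%) and 3 and 2 at 9 hr (36.4% and 36.4%). From each LPS time to the next, 6, 5 and 5 of the 6 tested members changed in WT (60.1%, 63.7% and 51.4% of all genes) and 6, 6 and 6 in KO (64%, 64.4% and 53.6%). Shares of this size over all genes mean that a call alone says little about the family, and its sizes and order in time are given for each gene. The comparisons with untreated cells share the same untreated libraries.

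Il6, the founding cytokine of the family, was near its lowest value in untreated cells. Untreated WT cells of mice 25, 69, 87 and 88 gave 7.72, 7.71, 7.74 and 7.75, and untreated KO cells of mice 2, 3, 55 and 62 gave 7.72, 7.77, 7.75 and 7.72. The rlog transformation draws low counts to a common floor, so rises from such values are understated. At 1 hr Il6 stood at 9.56, 9.64, 9.72 and 9.93 in WT and 9.80, 9.72, 9.71 and 9.59 in KO. At 3 hr it stood at 12.41, 12.08, 12.52 and 12.28 in WT and at 12.02, 12.11, 12.50 and 12.09 in KO. The genotypes overlapped at these times.

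The genotypes parted at 6 hr. WT libraries gave 12.16, 12.60, 12.44 and 12.65 for Il6, and KO libraries gave 12.83, 13.29, 13.00 and 12.67. Every KO value was above every WT value. The difference of 0.48 (SE 0.125, 95% interval 0.21 to 0.76) is a 1.40-fold higher level in KO (limma adjusted p = 0.021; two-sided exact permutation p = 0.029, the smallest that 4 against 4 libraries allow). It was 0.58 in batch 1 and 0.39 in batch 2. The call held in 12 of 15 alternative settings and was lost without WT mouse 25 (0.38, adjusted p = 0.053), with no limit on low values (adjusted p = 0.13) and without the trend in the variance model (adjusted p = 0.074).

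By 9 hr Il6 had fallen in both genotypes, to 9.75, 10.24, 9.86 and 9.60 in WT and 9.93, 10.92, 10.32 and 9.99 in KO. The ranges overlapped and the difference of 0.43 was not called (limma adjusted p = 0.21), with 0.78 in batch 1 and 0.08 in batch 2. It was 0.22 without KO mouse 3 and was called in 2 of 15 alternatives. Relative to untreated cells, Il6 in WT was 3.96-, 24.1-, 26.6- and 4.39-fold higher after 1, 3, 6 and 9 hr, and in KO 3.90-, 21.7-, 36.9- and 5.85-fold. From 3 to 6 hr Il6 did not pass the test in WT (0.14, SE 0.123, adjusted p = 0.33) and rose by 0.76 in KO (SE 0.16, adjusted p = 0.00030), and the within-mouse changes differed by 0.63 (exact permutation p = 0.057). The change from 1 to 6 hr, taken within each mouse, was 2.60 to 2.96 in WT and 3.04 to 3.57 in KO, with no overlap (exact p = 0.029, 0.13 after adjustment over 70 such comparisons), but the same difference missed the threshold across all genes (0.50, limma adjusted p = 0.11), as did that at 6 hr less untreated (0.48, adjusted p = 0.27).

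Oncostatin M mRNA had 2 peaks in both genotypes, at 1 and 6 hr. In untreated cells Osm was 7.65, 7.61, 7.43 and 7.57 in WT and 7.65, 7.28, 7.48 and 7.43 in KO. At 1 hr WT libraries reached 9.21, 9.37, 9.04 and 9.21, and KO libraries 9.11, 8.60, 8.83 and 9.01. The KO mean was lower by 0.32 at 1 hr, with 1 KO library inside the WT range, which was not called (limma adjusted p = 0.10, exact permutation p = 0.057) but passed with the mouse as a block (adjusted p = 0.020) and with all 40 libraries in one fit (adjusted p = 0.017). Those fits called 4323 and 4182 genes between genotypes at 1 hr, against 251 in the main setting.

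From 3 hr on the KO mean was the higher, with calls at 3 and 6 hr only. At 3 hr Osm had fallen back to 7.90, 7.75, 7.80 and 7.63 in WT, but only to 8.04, 8.22, 8.25 and 8.06 in KO, with no overlap. The 3 hr difference was 0.37 (SE 0.080, 1.29-fold, limma adjusted p = 0.037, exact permutation p = 0.029) and 0.37 in each batch. This call is fragile, since it held in 4 of 15 alternative settings, with adjusted p from 0.012 to 0.13, and was lost on leaving out any 1 mouse other than WT mouse 88. At 6 hr WT libraries gave 8.55, 8.92, 8.69 and 8.67, and KO libraries 9.15, 9.37, 9.06 and 9.10, again without overlap. The 6 hr difference of 0.46 (SE 0.085, 95% interval 0.28 to 0.65, 1.38-fold) was called in the main setting (limma adjusted p = 0.0039, exact permutation p = 0.029) and in all 15 alternatives, with 0.63 in batch 1 and 0.30 in batch 2. At 9 hr the values were 7.96, 8.30, 8.12 and 8.00 in WT and 8.35, 8.41, 8.37 and 8.26 in KO, a difference of 0.25 with 1 KO library inside the WT range (adjusted p = 0.083, exact permutation p = 0.057).

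**Figure D1:**
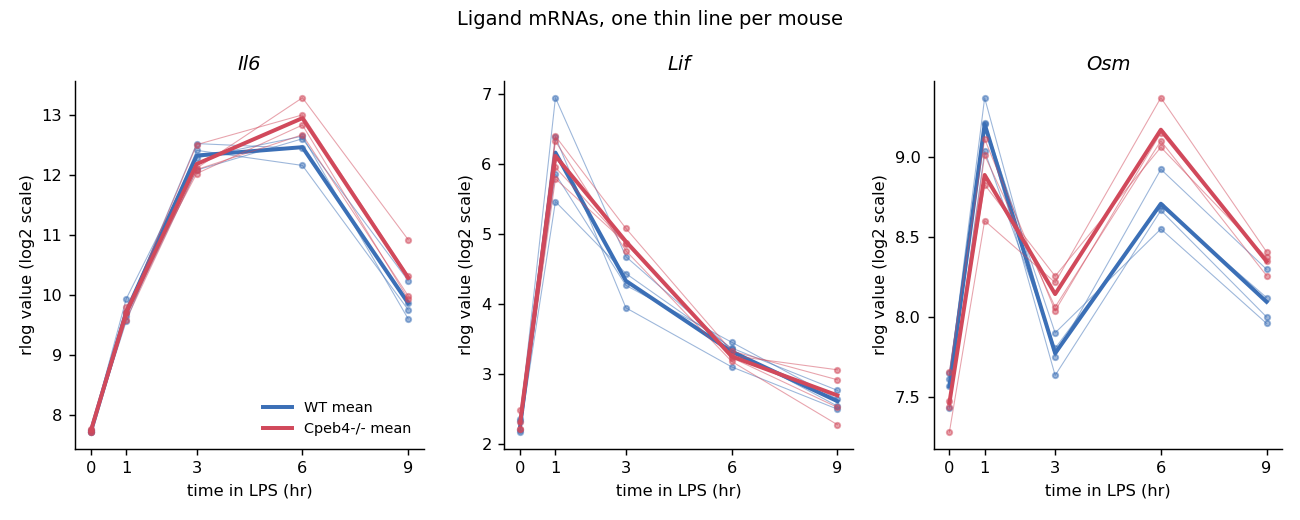
Ligand mRNAs by time in LPS, as rlog values on a log2 scale. Each thin line is 1 mouse (4 WT in blue, 4 Cpeb4-/- in red) and each thick line a genotype mean. Il6 separates at 6 hr, Lif peaks at 1 hr, and the mean lines of Osm cross between 1 and 3 hr.

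The second Osm peak was below the first in every WT mouse and above it in every KO mouse. Within a mouse, the value at 6 hr was lower than at 1 hr by 0.34 to 0.66 in the 4 WT mice, and higher by 0.04, 0.09, 0.23 and 0.77 in the 4 KO mice. The mean change was −0.50 ± 0.14 (SD) over the 4 WT mice and 0.28 ± 0.33 over the 4 KO mice (0.12 without mouse 3), and the change within KO alone was not tested. The genotype difference at 6 hr less that at 1 hr was 0.78 (SE 0.137, 95% interval 0.50 to 1.06, limma adjusted p = 0.00059), in a comparison in which 11.2% of all genes were called. It was called in all 14 alternatives, with adjusted p up to 0.0072, and was 0.62 without KO mouse 3, whose change was the largest. The 70 within-mouse comparisons gave an exact p of 0.029 for Osm, 0.13 after adjustment. From 1 to 3 hr Osm fell by 1.24 to 1.62 in WT mice and by 0.39 to 1.08 in KO mice, a difference of 0.69 (limma adjusted p = 0.023, 0.13% of all genes called), which held in 8 of 14 alternatives and was lost without any 1 of mice 3, 25, 55, 62, 87 and 88. These comparisons with 1 hr were chosen after the values were seen, and both use the same 1 hr libraries.

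**Figure D2:**
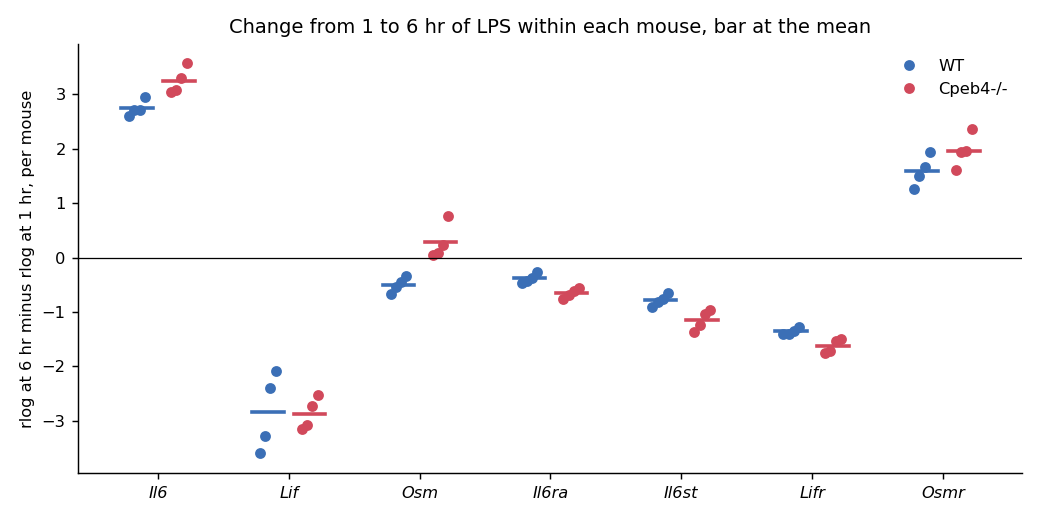
Change in rlog value from 1 to 6 hr of LPS within each mouse (points) with the mean of 4 mice (bar), for the 7 members. The 4 WT points for Osm lie below 0 and the 4 Cpeb4-/- points above it, and no other member differs in sign between genotypes.

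Against untreated cells, Osm in WT rose 3.12-fold at 1 hr, was 1.15-fold higher at 3 hr (adjusted p = 0.051, not called), and rose 2.21-fold at 6 hr and 1.44-fold at 9 hr. In KO it rose 2.69-, 1.60-, 3.28- and 1.85-fold, but the genotype difference at 3 hr less that in untreated cells was not called (0.47, adjusted p = 0.23). The genotype difference at 6 hr less that in untreated cells was 0.57 for Osm (SE 0.137, limma adjusted p = 0.017), the only call among the 6 tested members, where 2.94% of all genes were called. It was lost without any 1 of mice 3, 25, 62 and 88 (adjusted p up to 0.087). The same comparison called no member at 1, 3 or 9 hr, where it called 0.00763%, 0.206% and 1.76% of all genes.

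Leukemia inhibitory factor mRNA rose early and briefly. At 1 hr Lif stood at 6.39, 6.95, 5.47 and 5.86 in WT and at 5.95, 6.40, 5.79 and 6.33 in KO, from untreated values of 2.17 to 2.35 and 2.21 to 2.48. The rise was 15.0-fold in WT and 14.1-fold in KO, and the genotypes overlapped. At 3 hr Lif was 3.95, 4.68, 4.44 and 4.27 in WT and 4.86, 5.08, 4.87 and 4.76 in KO. Every KO value was above every WT value at 3 hr (exact permutation p = 0.029). At this time 3067 of 13083 tested genes had an unadjusted limma p under 0.05. The Lif difference of 0.56 (1.48-fold) was not called across all genes (limma adjusted p = 0.077, called in 1 of 14 alternatives). It was 0.82 in batch 1 and 0.31 in batch 2. By 6 hr the values overlapped again (3.10 to 3.45 in WT, 3.18 to 3.33 in KO), and by 9 hr they were 2.50 to 2.76 in WT and 2.27 to 3.06 in KO. The rise over untreated cells at 9 hr was 0.35 in WT (adjusted p = 0.17) and 0.39 in KO (adjusted p = 0.034, called in 4 of 8 alternatives), and the difference between these was not called.

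LPS lowered the mRNAs of 3 of the 4 chains. Il6st, the shared gp130 chain, was 10.81 to 11.02 in untreated WT cells and 10.83 to 11.27 in untreated KO cells. It fell to 10.21 to 10.69 (WT) and 10.36 to 10.58 (KO) at 3 hr and to 9.84 to 10.11 and 9.87 to 10.01 at 6 hr. At 6 hr it was 1.96-fold lower than in untreated cells in WT and 2.21-fold lower in KO, with overlapping genotypes. From 6 to 9 hr Il6st rose by 0.27 in KO (SE 0.10, limma adjusted p = 0.031, called in 6 of 9 alternatives), and the WT change was 0.03 (adjusted p = 0.84); within mice the changes differed by 0.24 (exact permutation p = 0.057).

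The genotypes separated for Il6st at 1 hr, a time at which 4631 of 13118 tested genes had an unadjusted limma p under 0.05. A separation at this time alone says little about a receptor. WT libraries gave 10.78, 10.81, 10.60 and 10.76, and KO libraries 10.86, 11.22, 11.04 and 11.24. The groups did not overlap, but the difference of 0.35 (SE 0.087, exact permutation p = 0.029) missed the threshold across all genes (limma adjusted p = 0.066) and passed it with the mouse as a block (adjusted p = 0.0081). It was called in 4 of 15 alternatives, with limma adjusted p up to 0.19. Il6ra, the chain that binds IL-6, behaved alike at this time, with 10.32, 10.27, 9.97 and 10.12 in WT and 10.33, 10.47, 10.44 and 10.54 in KO. Its difference was 0.28 (SE 0.082, exact permutation p = 0.029, limma adjusted p = 0.080, or 0.022 with the mouse as a block). It was called in 3 of 15 alternatives, with limma adjusted p up to 0.22. The fit with the mouse as a block called 4323 genes between genotypes at 1 hr, against 251 in the main setting. Il6ra then fell to 9.11 to 9.62 in WT and 9.32 to 9.50 in KO at 3 hr, 2.00-fold and 2.17-fold below untreated cells, and recovered. At 9 hr it stood at 10.39 to 10.53 in WT and 10.47 to 10.81 in KO, and neither genotype differed from its untreated cells by the test (adjusted p = 0.53 and 0.057).

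Lifr, the receptor for LIF, fell at every time. In WT it went from 8.90 to 9.10 in untreated cells to 6.83 to 6.97 at 9 hr, and in KO from 8.99 to 9.26 to 6.75 to 6.96. It was 4.18-fold lower at 9 hr than in untreated cells in WT and 4.84-fold lower in KO. At 6 hr WT libraries gave 7.35, 7.29, 7.16 and 7.37, and KO libraries 7.15, 6.98, 7.14 and 7.15. Every KO value was below every WT value (difference −0.19, SE 0.076, exact permutation p = 0.029), which was not called (limma adjusted p = 0.12, or 0.042 with the mouse as a block). The difference was called in 2 of 15 alternatives (limma adjusted p up to 0.27), with −0.30 in batch 1 and −0.08 in batch 2. At 6 hr 3948 of 13039 tested genes had an unadjusted limma p under 0.05. The fall from 1 to 6 hr was 1.27 to 1.40 in WT mice and 1.50 to 1.75 in KO mice, a difference of −0.27 (limma adjusted p = 0.049) that held in 6 of 14 alternatives and was lost without any 1 of mice 3, 25, 62, 69, 87 and 88.

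Osmr, the oncostatin M receptor, had low values throughout. Untreated WT cells gave 1.22 to 1.25, and after 1, 3, 6 and 9 hr the values were 1.29 to 1.55, 2.54 to 3.12, 2.56 to 3.26 and 1.79 to 2.84. In KO it was 1.21 to 1.49, 1.29 to 1.33, 2.63 to 3.32, 2.92 to 3.67 and 2.00 to 3.11. In both genotypes, every library at 3, 6 and 9 hr was above every library of untreated cells and of 1 hr, but these times were not tested for Osmr because of its low values. The genotypes overlapped at all times, and at 6 hr the difference was 0.32 (SE 0.21, limma adjusted p = 0.34).

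**Figure D3:**
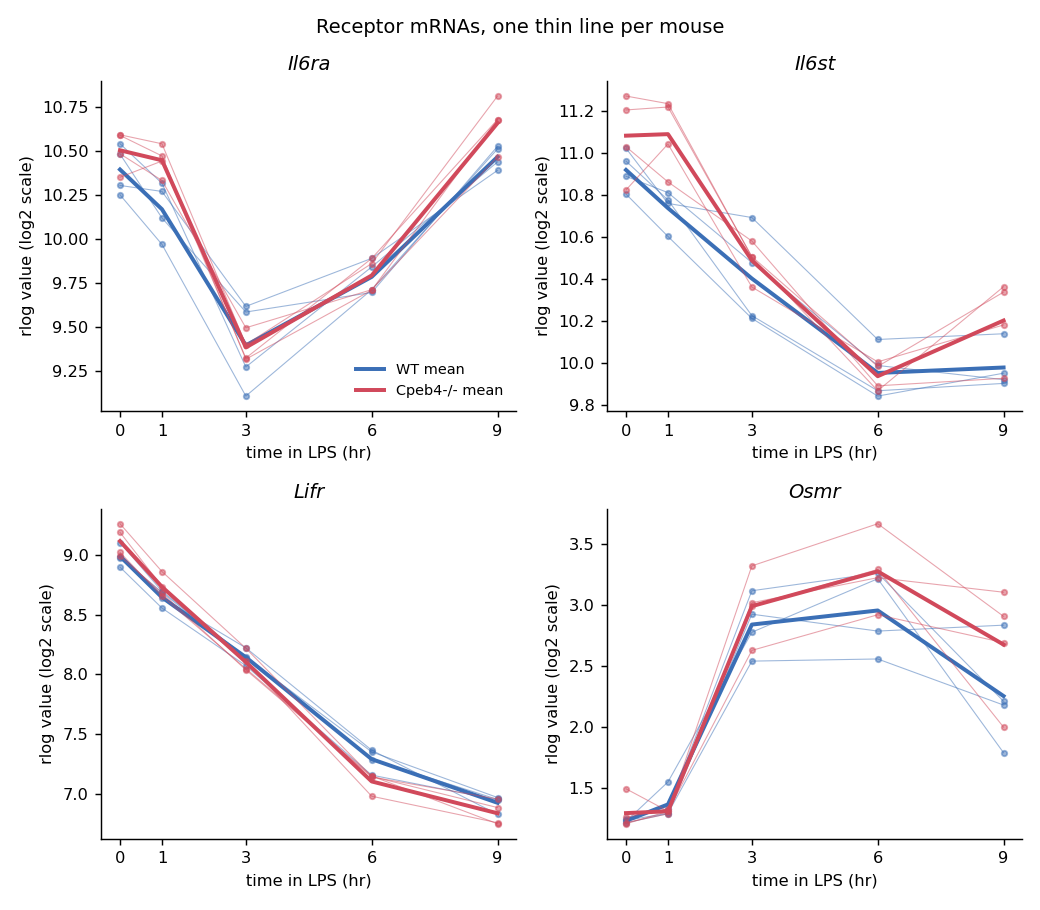
Receptor mRNAs by time in LPS, as rlog values on a log2 scale, with 1 thin line per mouse (4 WT in blue, 4 Cpeb4-/- in red) and genotype means as thick lines. Il6ra dips at 3 hr and returns by 9 hr, Il6st and Lifr fall, and Osmr is higher from 3 hr on.

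Between genotypes, few members were called at any time in the main setting, and each that was called was a ligand and higher in KO. With the mouse as a block, Il6ra and Il6st were also called higher in KO at 1 hr. That fit also called Osm lower in KO at 1 hr and Lifr lower at 6 hr. The counts that follow are those of the main setting. No member was called among 5 tested in untreated cells (0.741% of all genes higher and 0.565% lower) or among 6 tested at 1 hr (0.976% and 0.938%). Of 7 tested members, 1 (Osm) was higher at 3 hr (1.81% of all genes higher, 1.87% lower) and 2 (Il6 and Osm) at 6 hr (6.4% higher, 9.92% lower). No member was called at 9 hr (4.69% and 3.22%). With 2 of 7 called higher at 6 hr, the count rests on 2 genes.

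**Figure D4:**
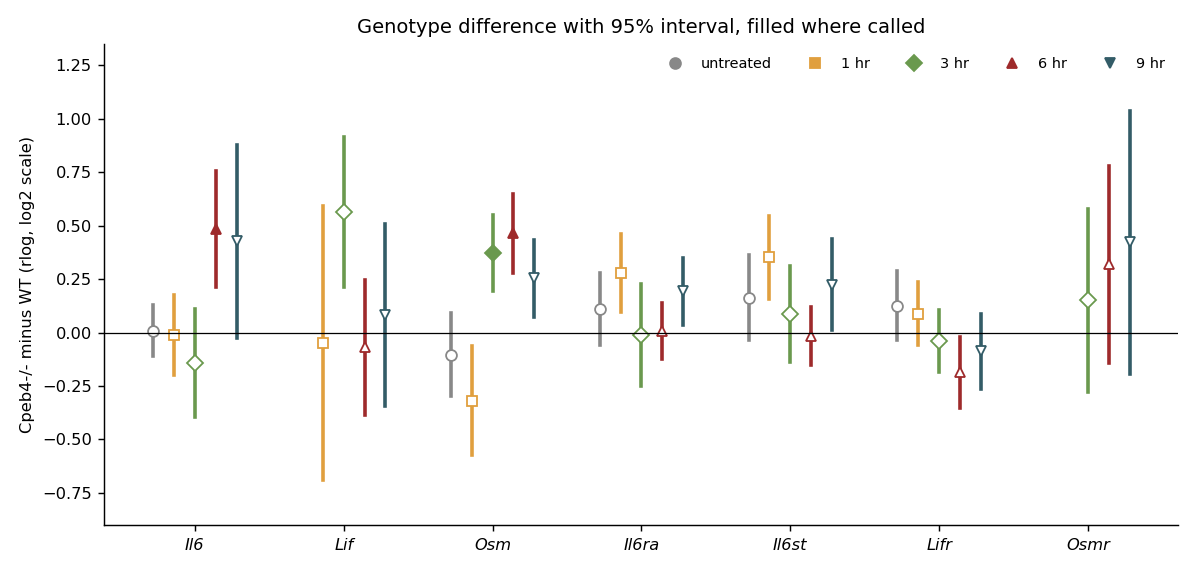
Difference in rlog value, Cpeb4-/- minus WT, for each member and time, with the 95% interval from limma; filled symbols are calls at an adjusted p under 0.05. Filled symbols are Il6 at 6 hr and Osm at 3 and 6 hr. Lif in untreated cells and Osmr in untreated cells and at 1 hr were under the low-value limit and are not shown.

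Markers of macrophages and of other cells were read beside these 3 and 6 hr results, as sums of back-transformed rlog values per library, which serve to compare libraries and give most weight to the genes with the highest values. The 8 macrophage markers summed to 620165 to 652574 in WT and 495678 to 575905 in KO at 6 hr, and to 292947 to 313603 and 270256 to 292441 without Lyz2. With Lyz2 included, the ranges were apart at all 5 times (638636 to 654752 and 459816 to 522596 at 3 hr). Without it they overlapped at 9 hr (286269 to 298853 and 265550 to 287035). At 6 hr the 7 fibroblast and stroma markers summed to 382 to 433 in WT and 595 to 718 in KO. Without Pdgfrb, which ran from 5.34 to 9.43 over the 40 libraries, the other 6 summed to 16.6 to 23.6 and 19.2 to 30.3, which overlap. The 4 endothelial markers overlapped (1484 to 2048 in WT, 1761 to 2566 in KO), as did the neutrophil list (186 to 264 and 199 to 246) and the dendritic cell list (124 to 172 and 118 to 139). At 3 hr the endothelial sums were apart, with 468 to 763 in WT and 1044 to 1103 in KO, but overlapped without Kdr (8.61 to 12.8 and 6.86 to 9.38). The dendritic cell sums at 3 hr overlapped (153 to 175 and 151 to 180), and without Xcr1 they were apart (33.3 to 48.5 and 57.9 to 70.8). Fibroblast sums (239 to 301 and 297 to 409) and neutrophil sums (106 to 157 and 108 to 154) overlapped at 3 hr. The 3 NK cell markers, with low values throughout, summed to 3.50 to 3.95 in WT and 7.33 to 11.0 in KO at 3 hr. Their sums were also apart in untreated cells (2.74 to 3.08 and 6.78 to 8.72) and at 1 hr (2.83 to 3.79 and 9.37 to 12.8), and overlapped at 6 hr (2.94 to 3.64 and 3.02 to 5.42). Without Klrb1c the NK cell sums overlapped at 3 hr (0.821 to 1.40 in WT, 0.820 to 1.08 in KO). They also overlapped in untreated cells (0.804 to 1.02 and 0.809 to 0.932) and at 1 hr (0.813 to 0.959 and 0.816 to 1.23). Mcpt4, a mast cell protease gene, was at 0 in every library. The part of these markers in the Il6 and Osm results was not tested.

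Scaled to the highest group mean of its genotype, each member showed a shape that can be set beside the others. In WT, Il6 rose from 3.73% of its peak in untreated cells to 14.8%, 90.6% and 100% after 1, 3 and 6 hr and returned to 16.6% by 9 hr. In KO it was at 58.6% ± 9.5 (SD, n = 4) of its peak at 3 hr, against 90.6% ± 11.7 in WT. Lif was at 26.4% ± 5.5 of its 1 hr peak by 3 hr in WT and at 42.3% ± 4.0 in KO, but the WT peak itself varied by 45.1% (SD) between mice. The fall of Lif from 1 to 3 hr differed by 0.61 between genotypes, which was not called (limma adjusted p = 0.58, exact permutation p = 0.17). Osm peaked at 1 hr in WT, with 70.8% ± 7.9 at 6 hr, and at 6 hr in KO, with 82.6% ± 12.5 at 1 hr. Among the receptors, Lifr was at 30.9% ± 2.0 of its untreated level at 6 hr in WT and 24.8% ± 1.4 in KO, and Il6ra was lowest at 3 hr with 48.1% ± 8.1 and 41.2% ± 2.4.

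**Figure D5:**
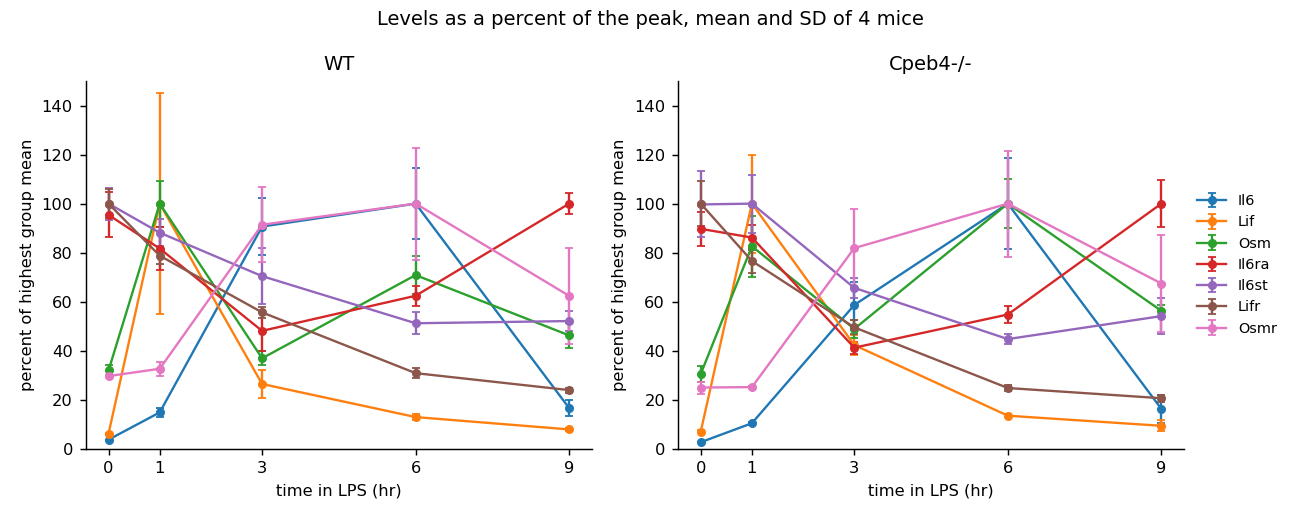
Level of each member as a percent of its highest group mean in WT (left) and Cpeb4-/- (right) cells, from back-transformed rlog values, by time in LPS; error bars are the SD of 4 mice. Osm is at 100% at 1 hr in WT and at 6 hr in Cpeb4-/- cells.

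For members whose group means spanned at least 2, the genes with the most similar course over the 10 group means were named, among about 1800 genes with a span as large. The courses nearest to Il6 were those of Cxcl10, a chemokine (r = 0.986), Clic4 (0.982) and Dusp16 (0.982). Nearest to Lif were Csf2, the gene of the cytokine GM-CSF (r = 0.989), Gem (0.986) and Rasgef1b (0.985). Nearest to Lifr were Acot1 (r = 0.992), Cyp27a1, a sterol hydroxylase (0.992), and Foxd2os (0.991), an antisense gene for which no strand setting of the counting is known, and nearest to Osmr were Itgb8 (0.991), Il12a, a subunit of IL-12 (0.990), and Slfn3 (0.989). These values describe 10 means that share mice and libraries.

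The other genes of the pathway were taken from lists by role. Their counts between genotypes stand beside 6.4% of all genes higher and 9.92% lower in KO at 6 hr, and 4.69% and 3.22% at 9 hr. Quantile normalization moved the 6 hr split over all genes from 835 higher and 1294 lower to 1025 and 986. Counts of 1 to 5 genes in lists of this size rest on single genes. Of 8 other gp130 ligands and related subunits, 3 were testable, and all 3 were higher than in untreated cells at every LPS time in both genotypes. Over all genes, 17.3% to 38.7% were higher at these times in WT and 23.8% to 39% in KO. At 6 hr, 2 of the 3 were lower in KO (median difference −0.33, against −0.02 over all genes), and these were the subunits that together form IL-27. Il27 was lower by 0.51 (SE 0.076, limma adjusted p = 0.0012) and Ebi3 by 0.33 (SE 0.042, adjusted p = 0.00060). At 9 hr Ebi3 was lower by 0.52 (SE 0.062, adjusted p = 0.0017). All 15 alternatives called these differences, which run against those of Il6 and Osm. In untreated cells 1 of the 3 was already lower in KO (0.565% of all genes). The genotype difference at 6 or 9 hr less that in untreated cells called none of the 3 (2.94% and 1.76% of all genes). Of 4 other receptors of the family, 2 were tested and none was called between genotypes at any time.

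Of 12 genes of gp130 signal transduction, 1 was higher and 4 lower in KO at 6 hr (6.4% and 9.92% of all genes; median −0.02, equal to that of all genes to 2 decimals). Tyk2, a JAK kinase gene, was lower by 0.41 (SE 0.063, limma adjusted p = 0.0014) and Sos1, an exchange factor for Ras, by 0.49 (SE 0.092, adjusted p = 0.0042), while Gab1, a docking protein gene, was higher by 0.24 (SE 0.053, adjusted p = 0.0090, called in 14 of 15 alternatives). None of the 12 was called at 9 hr. Of 8 feedback genes, 1 was higher and 2 lower at 6 hr (median 0.01). Socs2 was higher by 0.63 (SE 0.16, adjusted p = 0.018, called in 11 of 14 alternatives with adjusted p up to 0.076), Ptpn1, a tyrosine phosphatase gene, lower by 0.30 (SE 0.041, adjusted p = 0.00082; 0.16 after quantile normalization), and Socs3 lower by 0.20 (SE 0.046, adjusted p = 0.014; 0.07 lower after quantile normalization, adjusted p = 0.26). At 9 hr 1 was higher, Socs1 by 0.32 (adjusted p = 0.028, called in 7 of 15 alternatives), and 1 lower, Ptpn1 by 0.22 (adjusted p = 0.025, called in 8 of 15; 0.15 after quantile normalization).

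Of 17 genes known as STAT3 targets, 16 were higher and 1 lower at 6 hr of LPS than in untreated cells in each genotype (38.7% and 39.2% of all genes in WT, 39% and 40.1% in KO). Between genotypes, 2 were higher and 5 lower in KO at 6 hr (6.4% and 9.92% of all genes; median −0.11, against −0.02 over all genes), and 0 and 3 at 9 hr (median −0.06, against 0.00 over all genes). Timp1, a metalloproteinase inhibitor gene, was higher by 0.73 at 6 hr (SE 0.099, limma adjusted p = 0.00079). Il4ra, an interleukin-4 receptor chain gene, was lower by 0.48 at 6 hr (SE 0.053, adjusted p = 0.00024) and by 0.40 at 9 hr (SE 0.070, adjusted p = 0.0092). The transcriptional repressor gene Bcl6 was lower by 0.42 at 6 hr (adjusted p = 0.0011), and at 9 hr Lcn2, the gene of lipocalin 2, was lower by 0.41 (adjusted p = 0.0060) and Bcl2l1, the gene of Bcl-xL, by 0.29 (adjusted p = 0.021, called in 9 of 15 alternatives). The 5 genes of IL-6 receptor shedding and trafficking, which include the protease genes Adam10 and Adam17, were not called between genotypes at 1, 3, 6 or 9 hr.

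Regulators of Il6 mRNA decay moved both ways. Of 10, 2 were higher and 2 lower in KO at 6 hr (6.4% and 9.92% of all genes; median −0.01, against −0.02 over all genes) and 2 higher and none lower at 9 hr. Zfp36, the gene of tristetraprolin, which destabilizes mRNAs with AU-rich elements, was lower by 0.23 at 6 hr (SE 0.045, limma adjusted p = 0.0050, called in 14 of 15 alternatives; 0.12 lower after quantile normalization, adjusted p = 0.091), and Arid5a, whose product stabilizes Il6 mRNA, was lower by 0.29 (SE 0.082, adjusted p = 0.032, called in 9 of 15 alternatives). Zfp36l1, a relative of Zfp36, was higher by 0.19 at 6 hr (adjusted p = 0.047, called in 3 of 15) and by 0.35 at 9 hr (adjusted p = 0.019, called in 11 of 15 with adjusted p up to 0.061), and Zfp36l2 by 0.29 at 9 hr (adjusted p = 0.031, called in 5 of 15).

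Of 10 transcription factor genes with known roles at the Il6 promoter, 1 was higher and 3 lower in KO at 6 hr (median −0.09, against −0.02 over all genes), and 1 higher and 1 lower at 9 hr. Nfkb1, an NF-κB subunit gene, was higher by 0.21 at 6 hr (SE 0.050, limma adjusted p = 0.014, called in 14 of 15 alternatives; 0.33 after quantile normalization). Jun, an AP-1 subunit gene, was lower by 0.27 (SE 0.056, adjusted p = 0.0069) and Nfkbiz, the gene of a nuclear IκB protein needed for Il6 transcription, by 0.17 (adjusted p = 0.038, called in 4 of 15; 0.06 after quantile normalization). At 9 hr Fos was higher by 0.40 (adjusted p = 0.018, called in 12 of 15 with adjusted p up to 0.066) and Rela lower by 0.25 (adjusted p = 0.034, called in 7 of 15).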

How the data were processed

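Poly(A) RNA-seq libraries of BMDMs from 8 mice at 5 times were analysed. Per the submitters' processing notes, reads were aligned with STAR 2.3.0e to mm10, counted per gene with featureCounts and transformed with DESeq2. The deposited values are the authors' rlog values, on a log2 scale; counts were not used here. The labels gave each library's group, mouse, batch and cage. The 7 members, the pathway lists and the marker lists were chosen with earlier results of these data known.

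Genotypes were compared at each time with limma 3.58.1 in R 4.3.3 (lmFit, eBayes with trend) over all genes whose rlog averaged log2 of 5 (2.32) or more in the fitted libraries, with Benjamini-Hochberg adjustment over all of them and calls at an adjusted p under 0.05. Times were compared within a genotype in a fit of 5 time means over 20 libraries, and differences of differences in a fit of 10 group means over 40 libraries. For each member a two-sided exact permutation test of 4 against 4 mice was added (SciPy 1.17.1). Replicates were separate mice. Each mouse gave 5 libraries, and after removal of group means the median r between its libraries was 0.29 (lowest −0.19, and over 0.1 in 68 of 80 pairs), against −0.09 between other mice of the genotype, so the fit with the mouse as a block was run as an alternative, with duplicateCorrelation (statmod 1.5.0) for the genotypes. The other alternatives were no limit on low values, a limit of rlog 5, no variance trend, quantile normalization, all 40 libraries in one fit, batch as a covariate and leaving out each mouse. The fits were tested on simulated data.

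Named genes were the 7 members, Cpeb4, from each pathway list at most 3 genes with the largest called genotype difference at 6 and at 9 hr, and the 3 genes nearest in time course to each member spanning at least 2. Levels as a percent of the peak are means of 2 to the power of rlog. Promoters were taken from RefSeq (GRCm38.p6) and 3′ ends from GENCODE M21.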

Additional observations from a re-analysis of the deposited data

Results flagged for a closer look

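In 70 groups of 4 libraries, 3 held a library far from the other 3, and chance gives about 1 in 20 such groups. Lifr in WT cells at 9 hr was 6.83 in 1 library, with the others at 6.95 to 6.97. Lifr in KO cells at 6 hr was 6.98 in 1 library, with the others at 7.14 to 7.15, and Osmr in WT cells at 1 hr was 1.55 in 1 library, with the others at 1.29 to 1.33.

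Differences in the LPS response between genotypes were called for Osm and Lifr in the main setting. The genotype difference of Osm at 6 hr less that in untreated cells was 0.57 (limma adjusted p = 0.017, called in 10 of 14 alternatives). At 3 hr less 1 hr it was 0.69 (adjusted p = 0.023, called in 8 of 14) and at 6 hr less 1 hr 0.78 (adjusted p = 0.00059, called in 14 of 14). The change of Osm from 1 to 6 hr was downward in 4 of 4 WT mice and upward in 4 of 4 KO mice, 0.78 apart on average (exact permutation p = 0.029, 0.13 after adjustment over 70 comparisons). The genotype difference of Lifr at 6 hr less that at 1 hr was −0.27 (limma adjusted p = 0.049, called in 6 of 14 alternatives). The comparisons with 1 hr were chosen after the values were seen.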

How the results depend on the processing

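With the mouse as a replicate block, the count of genes called between genotypes was 414, 4323, 1393 and 2378 in untreated cells and after 1, 3 and 9 hr, against 171, 251, 481 and 1029 without it, and among the members it added calls for Osm, Il6ra and Il6st at 1 hr and for Lifr at 6 hr. For differences of differences the replicate block called 72 genes at 3 hr, 1032 at 6 hr and 654 at 9 hr less untreated, and 77 at 3 hr and 3302 at 6 hr less 1 hr, against 27, 385, 231, 17 and 1473. One fit of all libraries called 326, 4182, 1311 and 2280 genes in untreated cells and at 1, 3 and 9 hr. With no limit on low values the counts were 50, 53, 167, 1288 and 582 from untreated to 9 hr (2129 at 6 hr with the limit), and 8 at 1 hr less untreated, where a limit of rlog 5 called 0 and the fit as reported 1. Batch as a covariate gave 146, 194 and 1781 after 1, 3 and 9 hr and 28 for 3 hr less 1 hr, the fit without a variance trend gave 230 at 3 hr, and quantile normalization gave 227 at 6 hr less untreated. Without 1 mouse at a time, counts ranged from 44 to 163 in untreated cells, 40 to 2440 at 1 hr (without mice 3 and 69), 76 to 2584 at 3 hr (3 and 88), 1347 to 2331 at 6 hr (2 and 55), and 387 to 4575 at 9 hr (25 and 2). Differences of differences ranged from 0 to 2, 5 to 21, 84 to 391 and 89 to 226 genes at 1, 3, 6 and 9 hr less untreated, and from 0 to 29 and 244 to 1708 at 3 and 6 hr less 1 hr. The causes of these shifts were not tested.

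Directions turned only for differences that were not called. Quantile normalization gave −0.0083 for Il6 between untreated genotypes, −0.017 for Il6 from 3 to 6 hr in WT, 0.039 for Lif at 6 hr less 1 hr, −0.078 (WT) and −0.0040 (KO) for Il6ra at 9 hr against untreated, and −0.14 for Il6st at 1 hr in KO. Without 1 mouse at a time, Il6 ranged from −0.0012 to 0.017 untreated, −0.064 to 0.060 at 1 hr and −0.071 to 0.045 at 1 hr less untreated. Lif ranged from −0.28 to 0.21 at 1 hr, −0.039 to 0.22 at 9 hr, −0.30 to 0.14 at 1 hr and −0.11 to 0.24 at 9 hr less untreated, and −0.27 to 0.23 at 6 hr less 1 hr. Il6ra ranged from −0.11 to 0.062 at 3 hr and −0.024 to 0.043 at 6 hr. Il6st ranged from −0.052 to 0.038 at 6 hr, −0.0018 to 0.057 from 6 to 9 hr in WT, −0.063 to 0.066 at 1 hr in KO and −0.018 to 0.13 at 9 hr less untreated.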
